A study of Mus musculus with 6 samples.

Results

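The cell cycle engine of the embryonic kidney was examined through its cyclins, cyclin-dependent kinases (Cdks), Cdk inhibitors, retinoblastoma-type pocket proteins, E2f transcription factors, replication licensing factors and mitotic markers. Genes were chosen by name: numbered A, B, D and E cyclins, numbered Cdk, Mcm and E2f1 to E2f8 genes, and 17 single genes such as Rb1, Cdt1 and Mki67. Among the 22667 genes listed, 61 matched, of which 60 had values, 55 averaged at least 1 cRPKM and could be tested, and 5 were below that level. The unit, cRPKM, is a corrected form of RPKM, which scales reads to transcript length and library size, so that levels can be compared between genes.

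The 6 libraries came from kidneys of mouse embryos at E13.5, with 1 library made from total RNA of the 2 kidneys of an embryo. There were 3 Fat4-/- mutant embryos and 3 Fat4+/+ wildtype embryos, all from 1 pregnant female of a line backcrossed 6 times to the strain given as C57BL6/6. Most of the ureter had been taken off, and the tissue held ureteric bud, condensing mesenchyme and stroma. The labels do not say which part of Fat4 the mutation removes. The p-values measure the spread between littermates.

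Fat4, which encodes a giant cadherin, was at 7.82, 7.20 and 7.49 cRPKM in mutant libraries, against 16.74, 15.69 and 16.83 cRPKM in wildtype libraries, and so separated the labelled genotypes. All 8 kidney markers looked up (Six2, Pax2, Wt1, Eya1, Foxd1, Ret, Gata3 and Emx2) were expressed in every library, with summed levels of 407.7 to 456.7 cRPKM in mutant kidneys, with 342.5 to 383.8 in wildtype kidneys. Nephron progenitor markers (7 of 7 with values) summed to 338.6 to 392.9 cRPKM in mutant kidneys, with 274.0 to 303.8 in wildtype kidneys, and stromal markers (6 of 6) to 363.2 to 392.4 in mutant kidneys, with 375.4 to 503.6 in wildtype kidneys. Nephron progenitor sums did not overlap, and Eya1 (adjusted p = 0.00418) and Osr1 (adjusted p = 0.0237, limma) were called higher. Six2, Meox1, Itga8 and Uncx were higher without overlap but not called (adjusted p = 0.0673, 0.0518, 0.127 and 0.21, limma). Cited1 overlapped, with a ratio of means of 1.07 (adjusted p = 0.614, limma). Stromal sums overlapped. Pdgfra was called lower, at 29.21 to 30.37 cRPKM in mutant libraries, against 39.81 to 43.97 in wildtype libraries (adjusted p = 0.00427, limma). Tcf21 was lower without overlap (adjusted p = 0.066, limma). Dcn, Col1a1, Foxd1 and Meis1 overlapped, with ratios of means of 0.644, 0.89, 1.03 and 1.01. In bulk tissue fewer cells of a type cannot be told apart from less RNA per cell. The part of cell mixture and sex in the values below was not tested. Sums of endothelial (6 of 6), macrophage (6 of 7), erythroid (7 of 7), gonad (7 of 7) and renal vesicle markers (6 of 6) overlapped. The gonad sum was mostly Sox9, at 9.52 to 10.32 cRPKM in mutant libraries, against 9.15 to 11.54 in wildtype libraries. Amh of that list was too low to test, at 0.45 to 0.48 in mutant libraries, above its 0.36 to 0.43 in wildtype libraries. Single genes lower without overlap were Tek, Emcn, Mrc1 and Dll1 (adjusted p = 0.0599, 0.112, 0.0556 and 0.109, limma). The macrophage marker Emr1 was higher without overlap (adjusted p = 0.361, limma), and the endothelial markers Pecam1, Kdr, Cdh5 and Tie1 overlapped. Germ cell genes Stra8, Pou5f1 and Dazl were at or near 0. Sycp3, another germ cell gene, was at 0.80 to 1.12 cRPKM in mutant libraries, against 0.92 to 1.16 in wildtype libraries, and Ddx4 was at 0.11 to 0.15 in mutant libraries, below its 0.33 to 0.57 in wildtype libraries. Summed Y-linked levels were 69.6, 0.08 and 0.15 cRPKM in mutant and 72.97, 65.27 and 68.82 cRPKM in wildtype libraries, so the genotypes also differed in sex.

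A cell enters division when D cyclins, made in response to growth signals, activate Cdk4 and Cdk6, which together with cyclin E and Cdk2 phosphorylate Rb1 and its relatives and free E2f factors to transcribe genes of DNA synthesis. Replication origins are licensed beforehand, when Cdc6 and Cdt1 load the ring-shaped Mcm helicase onto DNA, and geminin (Gmnn) blocks Cdt1 afterwards. Cyclin B with Cdk1 then drives mitosis together with the Aurora and Polo kinases. In the embryonic kidney, division of nephron progenitors, stroma and ureteric tips sets the number of nephrons formed.

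Promoters of these genes carry short elements through which E2f factors and the Myb-MuvB and DREAM complexes time transcription, and 5 are shown to make the difference between the DNA synthesis and the mitotic genes visible. Each window runs from 250 bases before to 50 bases after a RefSeq transcription start on GRCm38.p6, 5′ to 3′ on the gene's strand. Capitals mark matches to an E2F element (TTTCCCGC, TTTCGCGC, TTTGCCGC or TTTGGCGC) or to a cell cycle genes homology region, CHR (TTTGAA or TTCGAA), on either strand. The windows lie at chr8:122567765-122568064 on the plus strand (Cdt1), and on the minus strand at chr1:128359656-128359955 (Mcm6), chr10:69352863-69353162 (Cdk1), chr11:99024140-99024439 (Top2a) and chr7:135716330-135716629 (Mki67).
Cdt1: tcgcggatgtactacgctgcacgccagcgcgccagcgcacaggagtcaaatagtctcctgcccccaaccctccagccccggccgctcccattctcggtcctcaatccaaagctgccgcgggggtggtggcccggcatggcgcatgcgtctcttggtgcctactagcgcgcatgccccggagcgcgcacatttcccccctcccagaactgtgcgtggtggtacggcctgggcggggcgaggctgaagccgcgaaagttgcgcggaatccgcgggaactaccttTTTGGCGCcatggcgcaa
Mcm6: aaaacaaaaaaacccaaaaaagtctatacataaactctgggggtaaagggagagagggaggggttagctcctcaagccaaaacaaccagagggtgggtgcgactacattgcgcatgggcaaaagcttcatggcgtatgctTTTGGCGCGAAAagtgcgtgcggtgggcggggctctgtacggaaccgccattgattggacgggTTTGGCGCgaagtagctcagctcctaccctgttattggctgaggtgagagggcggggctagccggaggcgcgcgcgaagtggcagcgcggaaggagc
Cdk1: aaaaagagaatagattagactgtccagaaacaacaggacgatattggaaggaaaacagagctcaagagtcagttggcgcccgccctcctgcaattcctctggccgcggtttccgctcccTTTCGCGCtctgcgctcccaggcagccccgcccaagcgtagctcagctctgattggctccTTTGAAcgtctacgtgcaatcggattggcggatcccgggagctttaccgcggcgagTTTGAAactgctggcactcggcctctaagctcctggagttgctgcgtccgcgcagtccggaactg
Top2a: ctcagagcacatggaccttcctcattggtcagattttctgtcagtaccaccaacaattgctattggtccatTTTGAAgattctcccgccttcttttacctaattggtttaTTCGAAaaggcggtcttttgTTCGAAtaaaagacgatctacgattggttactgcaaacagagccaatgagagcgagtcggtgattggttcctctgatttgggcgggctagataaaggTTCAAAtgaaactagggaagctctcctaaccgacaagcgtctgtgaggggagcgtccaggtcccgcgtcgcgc
Mki67: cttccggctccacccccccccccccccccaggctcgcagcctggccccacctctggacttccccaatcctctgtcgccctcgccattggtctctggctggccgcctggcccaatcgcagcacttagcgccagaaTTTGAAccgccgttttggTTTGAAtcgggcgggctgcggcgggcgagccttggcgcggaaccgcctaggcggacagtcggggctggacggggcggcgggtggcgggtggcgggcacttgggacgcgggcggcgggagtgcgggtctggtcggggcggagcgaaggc
Of these windows, the licensing pair carried E2F matches, 1 in Cdt1 and 3 in Mcm6, of which 2 overlap each other, and no CHR match. The mitotic pair carried CHR matches, 4 in Top2a and 2 in Mki67, and no E2F match, while Cdk1 held 1 E2F and 2 CHR matches.

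Among the 48 of 60 genes with a promoter sequence, 14 (29.2%) held an E2F match in at least 1 window, against 2.60% of 27025 genes with a promoter, and 14 (29.2%) held a CHR match, against 21.7%. No E2F and CHR match overlapped in any of 32851 windows. E2F matches were in 6 of 7 licensing promoters (Cdc6, Cdt1, Mcm3, Mcm5, Mcm6 and Mcm7), and Mcm2 was the exception, with a CHR match; Mcm7 held both kinds. CHR matches were in 4 of 4 promoters of the mitosis and proliferation markers (Mki67, Top2a, Aurka and Plk1). Of the mitotic cyclin genes, Ccnb2 held 2 CHR matches, but Ccnb1 held 0 matches of either kind. A match is a stretch of letters and was not tested as a binding site.

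The comparison of mutant with wildtype kidneys asks whether loss of Fat4 changed the RNA levels of this machinery. None of the 55 tested genes was called higher or lower in mutant kidneys (limma, adjusted p under 0.05 over 12315 genes), where 1.43% of all tested genes were called (0.552% higher and 0.877% lower). The differences were narrow: over all 55 genes the 95% intervals of the fold change lay between 0.704 and 1.22, on the cRPKM + 1 scale. At an unadjusted p under 0.05 there were 7 (12.7%; E2f1, E2f3 and Cdt1 higher, Ccnd1, Cdk6, Rb1 and Rbl2 lower), close to the 13.0% of all tested genes (5.08% higher and 7.97% lower). Their lowest adjusted p was 0.201, for Rbl2. The groups did not overlap for 13 genes, 9 with mutant above and 4 with mutant below wildtype values, against 18.2% of all tested genes (7.23% above and 11.0% below). Log2 fold changes were above 0 for 29 and below 0 for 26 genes, with a median of 0.01, beside 43.2% above 0 and a median of -0.01 over all tested genes. The summed level of the 60 genes was 2851, 2895 and 2906 cRPKM in mutant and 2860, 2897 and 2892 cRPKM in wildtype libraries, or 0.575 to 0.608% and 0.576 to 0.611% of all cRPKM. No gene was called under any of the 16 alternative settings, but the small fold changes themselves moved. With the score of Y-linked genes as covariate, 33 of the 51 genes followed in detail moved by over 1.5 times, 27 of them to smaller values or the other sign. That score was 4.07, 0.0285 and 0.053 in mutant embryos 1, 2 and 3, against 4.13, 4 and 4.06 in wildtype embryos. Genotype in that fit therefore rests mainly on mutant embryo 1 against the wildtype embryos. Values given with this covariate are thus no sex adjustment of all 3 mutant embryos.

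**Figure D1:**
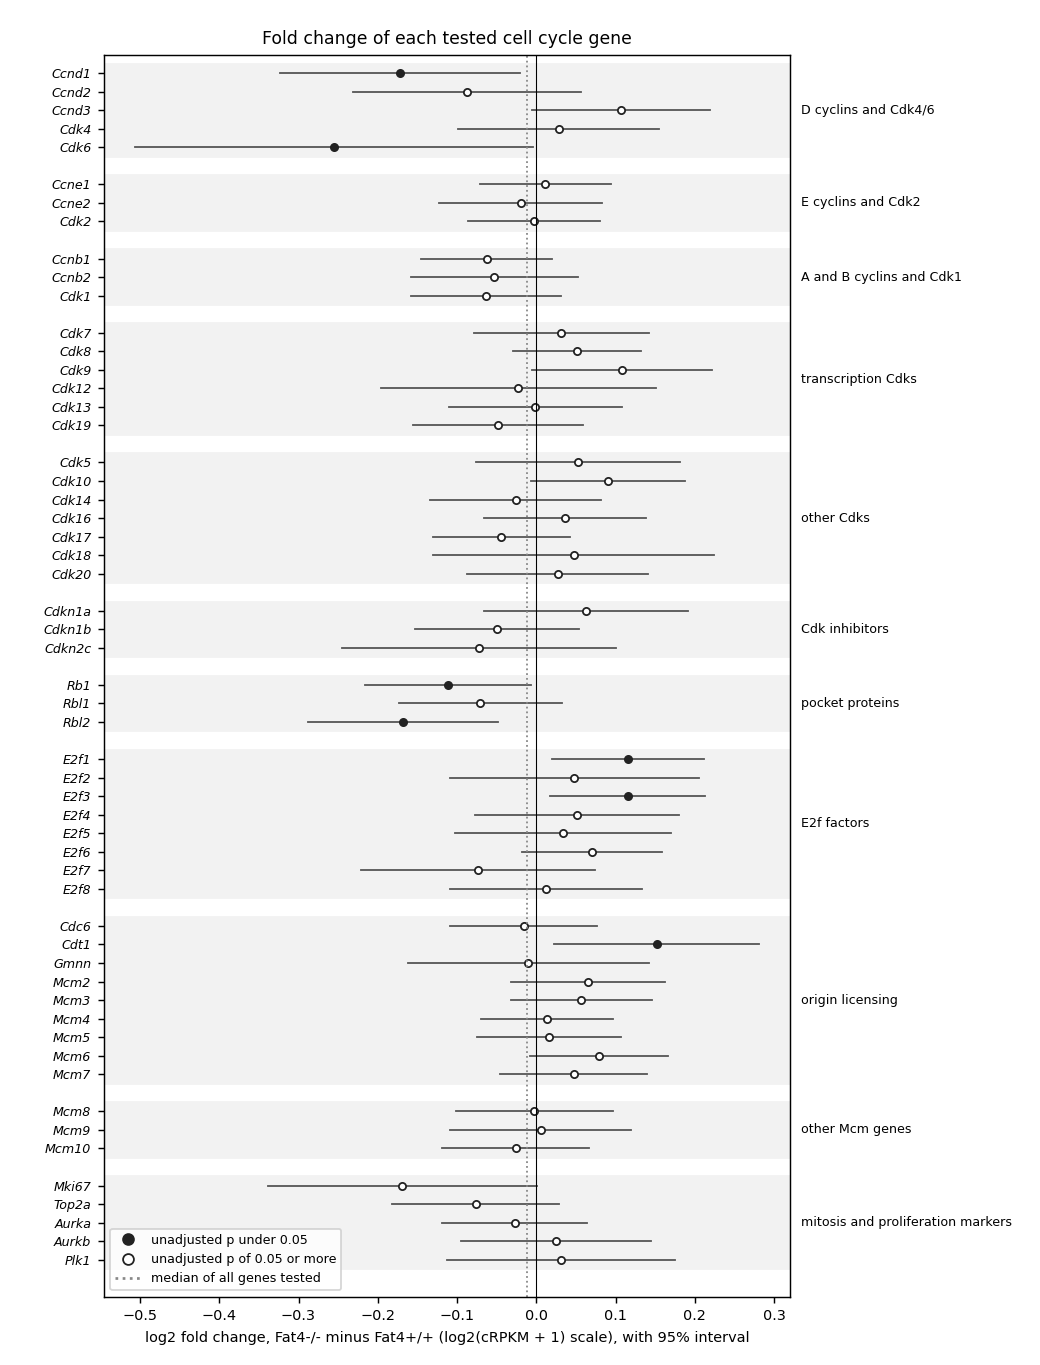
Log2 fold change (Fat4-/- minus Fat4+/+, on the log2(cRPKM + 1) scale) of each of the 55 tested genes, by role, with its 95% interval from limma; filled points have an unadjusted p under 0.05 and the dotted line is the median of all genes tested. All points lie between -0.26 and 0.15, and none passed after adjustment over 12315 genes.

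D cyclins and their kinases stood at very different levels. Cdk4, the main partner of D cyclins here by RNA level, was at 442.89, 480.80 and 452.75 cRPKM in mutant libraries, against 461.60, 458.45 and 429.41 cRPKM in wildtype libraries. These values overlap, and the interval of the fold change ran from 0.934 to 1.11 (adjusted p = 0.881, limma). Its close relative Cdk6 was at 1.46, 1.25 and 1.45 cRPKM in mutant and 1.79, 1.46 and 2.36 cRPKM in wildtype libraries, so that the 2 kinases differed over 100-fold in level within each library, the ratio being 303, 385 and 312 in mutant and 258, 314 and 182 in wildtype libraries.

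Ccnd1, the D cyclin that many growth signals induce, was at 146.79, 147.97 and 163.64 cRPKM in mutant libraries, against 159.88, 171.92 and 185.32 cRPKM in wildtype libraries. Mutant embryo 3 lay above wildtype embryo 1, so the groups overlapped. Its mean was 152.8 ± 9.41 cRPKM in mutant and 172.4 ± 12.7 cRPKM in wildtype kidneys (SD, n = 3 each), with a log2 fold change of -0.17 (SE 0.0662, limma adjusted p = 0.313). Ccnd2 was at 141.37, 123.04 and 143.53 cRPKM in mutant and 141.44, 148.68 and 142.57 cRPKM in wildtype libraries, with mutant embryo 2 the lowest of the 6 (log2 fold change -0.09, limma adjusted p = 0.629, and -0.02 without that embryo). Ccnd3, at 96.69, 99.70 and 100.31 cRPKM in mutant and 93.40, 96.10 and 86.09 cRPKM in wildtype libraries, was the one gene of this group whose mutant values were all above the wildtype values (log2 fold change 0.11, SE 0.0492, limma adjusted p = 0.412). For Cdk6 the log2 fold change was -0.26 (SE 0.109, limma adjusted p = 0.373), and it rested on wildtype embryo 3, without which it was -0.14, and on the pseudocount, being -0.38 with 0.1.

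Cyclin E and Cdk2, which complete the commitment to DNA synthesis, had overlapping values in both genotypes. Ccne1 was at 45.11, 45.90 and 46.50 cRPKM in mutant libraries, against 45.71, 46.05 and 44.66 cRPKM in wildtype libraries, and its fold change had an interval of 0.952 to 1.07. Cdk2 was at 47.67, 49.51 and 47.53 cRPKM in mutant and 48.14, 48.73 and 48.14 cRPKM in wildtype libraries, with an interval of 0.942 to 1.06. Ccne2 was at 18.67 to 20.42 cRPKM in mutant kidneys, with 19.61 to 20.47 in wildtype kidneys, with an interval of 0.919 to 1.06. Adjusted p-values of the 3 genes were 0.902 to 0.984 (limma).

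In the mitotic group, Ccnb1, which encodes the main cyclin of mitotic entry, was at 87.67, 87.85 and 85.78 cRPKM in mutant libraries, against 90.54, 91.87 and 90.60 cRPKM in wildtype libraries. The mutant values were all below the wildtype values (ratio of means 0.957, log2 fold change -0.06, SE 0.0359, limma adjusted p = 0.526). Cdk1, its kinase, was at 50.24, 51.93 and 49.22 cRPKM in mutant and 54.63, 52.32 and 51.36 cRPKM in wildtype libraries, and mutant embryo 2 lay within the wildtype range (adjusted p = 0.590, limma). Ccnb2 was at 54.98 to 60.63 cRPKM in mutant kidneys, with 58.17 to 60.44 in wildtype kidneys (adjusted p = 0.697, limma). The germline cyclin genes Ccna1, at 0.27 to 0.41 cRPKM in mutant kidneys, with 0.29 to 0.38 in wildtype kidneys, and Ccnb3, at no more than 0.01, were too low to test.

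Cdk inhibitors stood at very different levels. Cdkn1c, which encodes p57 of the Cip and Kip family and lies outside the named set, was abundant at 369.28, 434.60 and 388.54 cRPKM in mutant libraries, against 399.37, 393.93 and 338.90 cRPKM in wildtype libraries, with overlap (log2 fold change 0.08, limma adjusted p = 0.773). Its relatives were far lower. Cdkn1b, which encodes p27, was at 10.86, 10.89 and 10.11 cRPKM in mutant libraries, against 11.02, 10.74 and 11.31 cRPKM in wildtype libraries. Cdkn1a, which encodes p21 and is induced by p53, was at 4.18, 4.41 and 4.02 cRPKM in mutant and 3.87, 4.25 and 3.83 cRPKM in wildtype libraries. Both overlapped between genotypes, and the intervals of the fold change were 0.899 to 1.04 for Cdkn1b and 0.955 to 1.14 for Cdkn1a (adjusted p = 0.716 and 0.707, limma). Of the Ink4 genes, whose products bind Cdk4 and Cdk6, Cdkn2c was the one high enough to test, at 1.00, 1.25 and 1.20 cRPKM in mutant and 1.41, 1.15 and 1.22 cRPKM in wildtype libraries (adjusted p = 0.760, limma). Cdkn2b stayed at 0.09 to 0.25 cRPKM in mutant kidneys, with 0.11 to 0.19 in wildtype kidneys, and Cdkn2a at 0 to 0.03 in mutant kidneys, with 0.02 to 0.06 in wildtype kidneys. Cdkn2d was not analysed here.

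The pocket protein genes, whose products hold E2f factors in check, all had log2 fold changes below 0. Rbl2, for p130, was at 7.10, 6.44 and 6.59 cRPKM in mutant libraries, against 7.75, 7.30 and 7.94 cRPKM in wildtype libraries. Its mutant values were all below its wildtype values (6.71 ± 0.346 in mutant and 7.66 ± 0.329 cRPKM in wildtype kidneys, SD, n = 3 each; log2 fold change -0.17, SE 0.0522, limma adjusted p = 0.201). Rb1, the retinoblastoma gene itself, was at 4.25, 4.26 and 4.35 cRPKM in mutant and 4.74, 4.58 and 4.82 cRPKM in wildtype libraries, again without overlap (log2 fold change -0.11, SE 0.0457, limma adjusted p = 0.349). Rbl1, for p107, was the most abundant of the 3, at 14.74, 13.91 and 13.93 cRPKM in mutant and 14.79, 14.48 and 15.60 cRPKM in wildtype libraries, and overlapped (adjusted p = 0.579, limma).

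**Figure D2:**
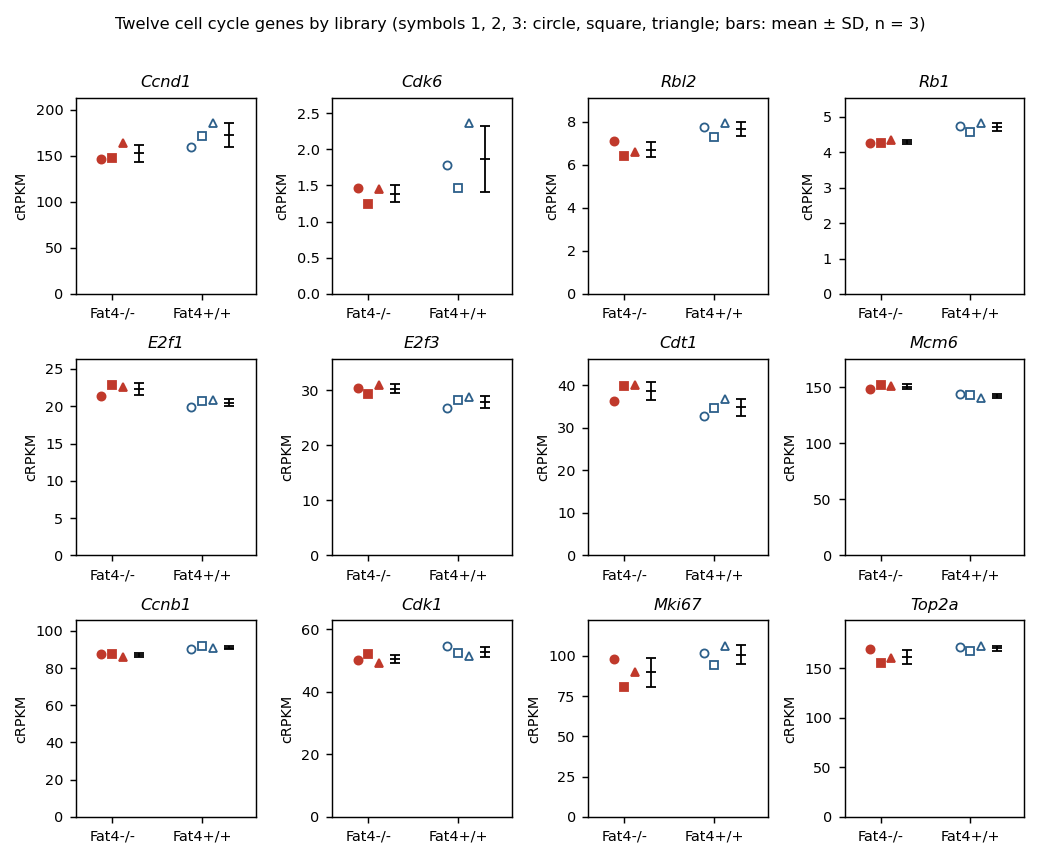
Levels in cRPKM of 12 genes in each library, Fat4-/- left and Fat4+/+ right, with axes from 0; circle, square and triangle are embryos 1, 2 and 3, and bars give the mean ± SD (n = 3 each). Mutant values lie above wildtype values without overlap for E2f1, E2f3 and Mcm6 and below them for Rbl2, Rb1 and Ccnb1, by amounts that are small beside the level itself.

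Among the E2f genes, 7 of 8 had log2 fold changes above 0, with a median of 0.05 (0.03 without wildtype embryo 1 and 0.02 with the score of Y-linked genes as covariate), against 43.2% of all tested genes above 0. E2f1, an activator of DNA synthesis genes, was at 21.40, 22.89 and 22.54 cRPKM in mutant libraries, against 19.93, 20.72 and 20.78 cRPKM in wildtype libraries. E2f3, another activator, was at 30.37, 29.34 and 30.98 cRPKM in mutant and 26.69, 28.15 and 28.66 cRPKM in wildtype libraries. Neither overlapped, and both had a log2 fold change of 0.12 with intervals of 1.01 to 1.16 that did not pass over all genes (adjusted p = 0.278 and 0.295, limma). The repressor gene E2f6 was at 34.43, 32.92 and 32.48 cRPKM in mutant and 31.85, 31.85 and 31.22 cRPKM in wildtype libraries, also without overlap (adjusted p = 0.506, limma). E2f4, which works with p107 and p130 in resting cells, was the most abundant at 54.12 to 58.01 cRPKM in mutant kidneys, with 50.67 to 57.80 in wildtype kidneys. The remaining members E2f2, E2f5, E2f7 and E2f8 overlapped, and E2f7, a repressor, was the one with a log2 fold change below 0 (-0.07, adjusted p = 0.699, limma).

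Licensing genes were abundant, and 7 of 9 had log2 fold changes above 0, against 43.2% of all tested genes. Mcm6, a helicase subunit, was at 148.42, 152.34 and 151.36 cRPKM in mutant libraries, against 144.20, 142.81 and 140.75 cRPKM in wildtype libraries. The mutant values were all above the wildtype values (ratio of means 1.06, log2 fold change 0.08, SE 0.0380, limma adjusted p = 0.433). Mcm2 was at 86.79, 87.65 and 92.74 cRPKM in mutant and 82.94, 86.23 and 86.01 cRPKM in wildtype libraries, and Mcm3 at 103.55, 106.41 and 108.29 in mutant and 99.93, 102.36 and 103.53 in wildtype libraries. Both were without overlap, by margins of less than 1 cRPKM between the nearest libraries (adjusted p = 0.584 and 0.612, limma). Mutant values were all above wildtype values in 7.23% of all tested genes. Mcm4, Mcm5 and Mcm7 overlapped, with ratios of means of 1.01, 1.01 and 1.03. The median log2 fold change of the 9 licensing genes was 0.05, and 0.01 with the score of Y-linked genes as covariate. The 6 subunits of the helicase stood within a 2-fold range of each other, between 84.45 and 152.34 cRPKM in mutant and 82.94 and 144.20 cRPKM in wildtype libraries.

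Of the factors that load the helicase, Cdt1 was at 36.30, 39.76 and 40.12 cRPKM in mutant libraries, against 32.81, 34.61 and 36.85 cRPKM in wildtype libraries. Mutant embryo 1 lay below wildtype embryo 3, so the groups overlapped (38.7 ± 2.11 in mutant and 34.8 ± 2.02 cRPKM in wildtype kidneys, SD, n = 3 each; log2 fold change 0.15, SE 0.0564, limma adjusted p = 0.297). This was the highest fold change of the 55 genes without a covariate; with the score of Y-linked genes as covariate it was 0.06, below E2f3 and E2f6 at 0.12 each. Cdc6 was at 23.88, 23.44 and 23.20 cRPKM in mutant and 24.70, 23.63 and 23.04 cRPKM in wildtype libraries. Gmnn, the brake on Cdt1, was at 32.85, 36.53 and 30.46 cRPKM in mutant and 35.14, 32.22 and 32.99 cRPKM in wildtype libraries, and both overlapped (adjusted p = 0.914 for Cdc6 and 0.972 for Gmnn, limma). Mcm8 and Mcm9, which act in DNA repair, and Mcm10, which helps start the fork, were lower in level at 6.17 to 17.84 cRPKM in mutant kidneys, with 5.87 to 18.35 in wildtype kidneys (adjusted p = 0.847 to 0.989, limma).

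**Figure D3:**
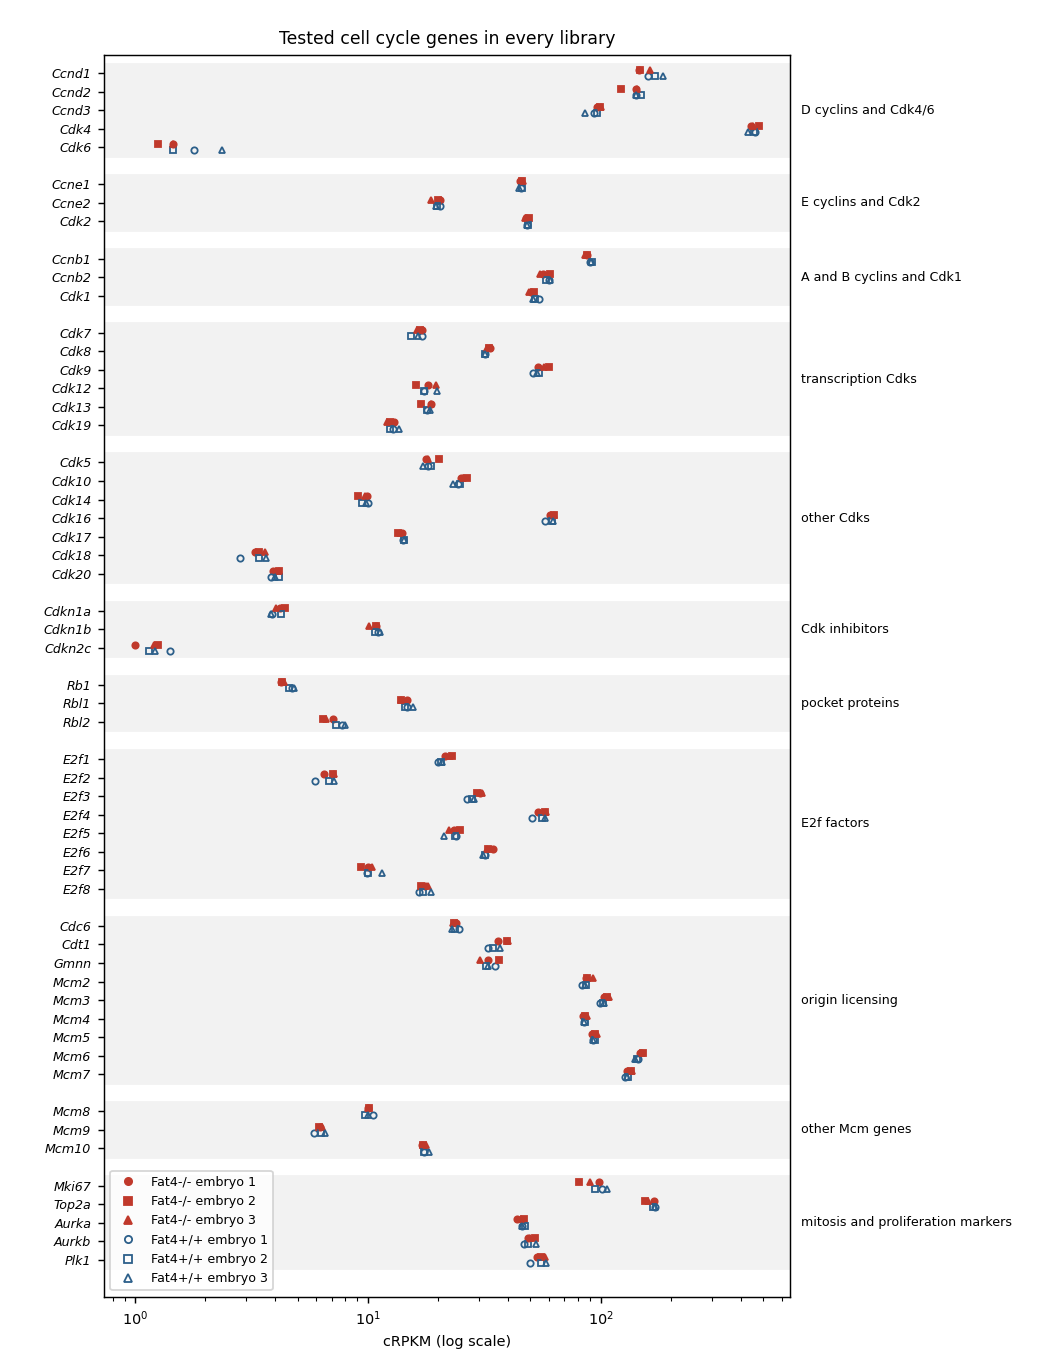
Level of each of the 55 tested genes in every library (cRPKM, log scale), by role; filled symbols are Fat4-/- and open symbols Fat4+/+ embryos. Differences between genes, from about 1 cRPKM for Cdkn2c and Cdk6 to 480.80 for Cdk4 in mutant embryo 2, are far wider than differences between genotypes.

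Mki67, for the Ki-67 protein of cycling cells, was at 98.38, 80.79 and 89.90 cRPKM in mutant libraries, against 101.55, 94.57 and 106.13 cRPKM in wildtype libraries. Mutant embryo 2 was the lowest and wildtype embryo 3 the highest, and mutant embryo 1 lay within the wildtype range (89.7 ± 8.80 in mutant and 100.8 ± 5.82 cRPKM in wildtype kidneys, SD, n = 3 each; log2 fold change -0.17, SE 0.0742, limma adjusted p = 0.387). Without mutant embryo 2 the log2 fold change was -0.10 (adjusted p = 0.643, limma), and with the score of Y-linked genes as covariate it was -0.03. Top2a, the topoisomerase that untangles chromosomes, was at 169.30, 155.04 and 159.69 cRPKM in mutant and 170.92, 167.27 and 172.14 cRPKM in wildtype libraries, again lowest in mutant embryo 2 (adjusted p = 0.546, limma). The mitotic kinase genes Aurka, Aurkb and Plk1 overlapped between genotypes, with fold-change intervals of 0.921 to 1.05, 0.936 to 1.11 and 0.925 to 1.13.

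Mki67 and Cdk6, both with long transcripts, were lowest in mutant embryo 2 and highest in wildtype embryo 3, and long transcripts in general were set against them after these values had been seen. Over the 698 tested genes whose longest GENCODE transcript exceeds 8000 bases, the median log2 deviation from the mean of the 6 libraries was 0.03, -0.11 and -0.01 in mutant embryos 1, 2 and 3, against 0.04, -0.04 and 0.09 in wildtype embryos 1, 2 and 3. Over the 2429 genes of up to 2000 bases it was -0.03, 0.07 and -0.04 in mutant and 0.04, 0.01 and -0.05 in wildtype embryos. Mutant embryo 2 was thus low and wildtype embryo 3 high for long transcripts. The longest transcripts are of 10061 bases for Mki67, 11525 for Cdk6 and 12548 for Cdk13. Cdk13 was also lowest in mutant embryo 2, and its log2 fold change was -0.0014. Across the 55 genes the log2 fold change was negatively correlated with transcript length (Spearman's rho -0.396), and across 12129 tested genes with a length rho was -0.121. Points in these correlations share the same 6 libraries, and the part of length in the fold changes was not tested.

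**Figure D4:**
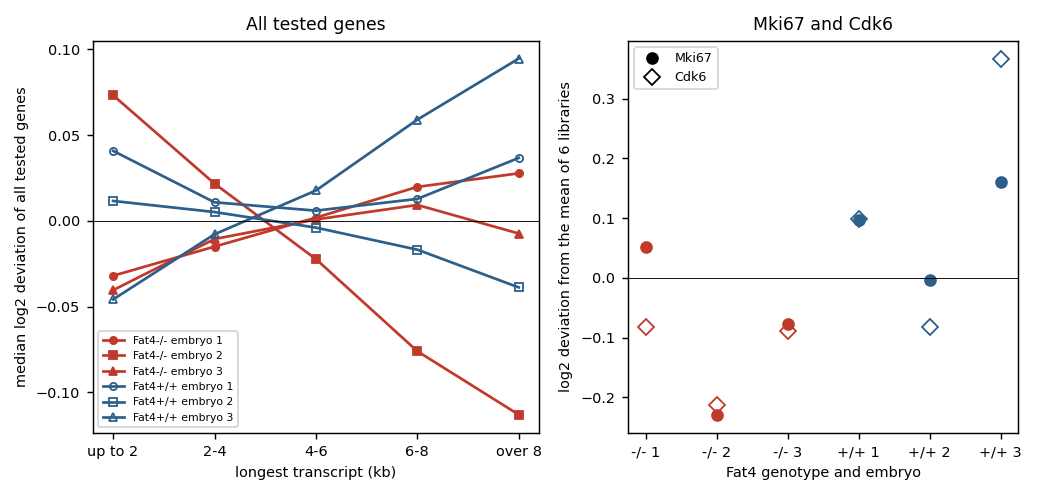
Left, median log2 deviation from the mean of the 6 libraries over all tested genes by class of longest transcript (kb), with a line per library; right, the same deviation for Mki67 and Cdk6. Mutant embryo 2 is lowest for the longest class (-0.11) and for both genes, and wildtype embryo 3 highest.

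Cdks outside the cell division core included 6 that act on transcription, none of them called. Cdk9, which releases paused RNA polymerase, was at 53.89, 60.25 and 57.00 cRPKM in mutant libraries, against 51.09, 54.31 and 53.11 cRPKM in wildtype libraries, with mutant embryo 1 inside the wildtype range (log2 fold change 0.11, limma adjusted p = 0.413). Cdk8, of the Mediator complex, was at 33.58, 33.15 and 32.51 cRPKM in mutant and 31.88, 32.01 and 31.79 cRPKM in wildtype libraries, without overlap (ratio of means 1.04, limma adjusted p = 0.614). Its paralog Cdk19 was at 12.08 to 12.97 cRPKM in mutant kidneys, with 12.50 to 13.56 in wildtype kidneys (adjusted p = 0.737, limma). Cdk7, the Cdk-activating kinase, and Cdk12 and Cdk13, which act on elongating polymerase, overlapped (adjusted p = 0.846, 0.938 and 0.992, limma).

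Cdk10 was at 25.15, 26.70 and 25.62 cRPKM in mutant and 24.35, 24.91 and 23.33 cRPKM in wildtype libraries, with mutant values all above (adjusted p = 0.422, limma). Cdk17 was at 14.05, 13.54 and 13.79 cRPKM in mutant and 14.12, 14.29 and 14.34 cRPKM in wildtype libraries, with mutant values all below (adjusted p = 0.694, limma). Cdk5, best known from neurons, was at 17.83, 20.22 and 18.18 cRPKM in mutant and 18.14, 18.73 and 17.20 cRPKM in wildtype libraries and overlapped. Cdk14, Cdk16, Cdk18 and Cdk20 overlapped as well, at 9.09 to 9.89, 60.35 to 63.33, 3.27 to 3.61 and 3.93 to 4.17 cRPKM in mutant and 9.41 to 10.00, 57.66 to 62.46, 2.83 to 3.65 and 3.85 to 4.14 cRPKM in wildtype libraries. Cdk15 was too low to test, at 0.12 to 0.14 cRPKM in mutant kidneys, with 0.11 to 0.21 in wildtype kidneys.

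Wider lists of the same machinery were counted beside these genes, and no gene of them was called. Of 46 genes of the replication fork and nucleotide supply, all tested, 17 had log2 fold changes above 0 and 29 below, with a median of -0.01 and none at an unadjusted p under 0.05. Those with the smallest p were Dbf4, a partner of the Cdc7 kinase (-0.07, adjusted p = 0.516), Pold1, of DNA polymerase delta (0.09, adjusted p = 0.522), and Gins3, of the helicase complex (-0.06, adjusted p = 0.562, limma). Of 40 spindle, kinetochore and mitotic exit genes, 37 had log2 fold changes below 0, with a median of -0.07. Over all 12315 tested genes, 6998 were below 0. In the spindle list 9 (22.5%) had an unadjusted p under 0.05, all lower, against 7.97% of all tested genes. In 13 of the 40 the mutant values were all below the wildtype values, against 11.0% of all tested genes. The median of the 40 genes was below 0 in every setting tried. It ran from -0.10 without mutant embryo 1 to -0.04 with the score of Y-linked genes as covariate. Genes and settings share the same libraries, so these counts are not independent. The mean deviation of the 40 genes was -0.01, -0.02 and -0.07 in mutant and 0.04, 0.02 and 0.04 in wildtype libraries on the log2 scale. CHR matches were in 27 of 35 promoters of this list (77.1%) and E2F matches in 2 (5.71%).

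Prc1, which bundles microtubules of the central spindle, was at 46.50, 44.01 and 45.72 cRPKM in mutant libraries, against 51.11, 49.45 and 50.49 cRPKM in wildtype libraries. It had the smallest p of the spindle list (log2 fold change -0.15, SE 0.0386, limma adjusted p = 0.129). Hmmr, a spindle assembly factor, was at 26.81, 24.46 and 26.08 cRPKM in mutant and 29.67, 28.23 and 28.83 cRPKM in wildtype libraries (adjusted p = 0.158, limma). The kinesin gene Kif20b was at 16.39, 14.47 and 14.93 cRPKM in mutant and 17.33, 16.52 and 17.52 cRPKM in wildtype libraries (adjusted p = 0.244, limma). In all 3 genes the groups did not overlap, and mutant embryo 2 was the lowest library.

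**Figure D5:**
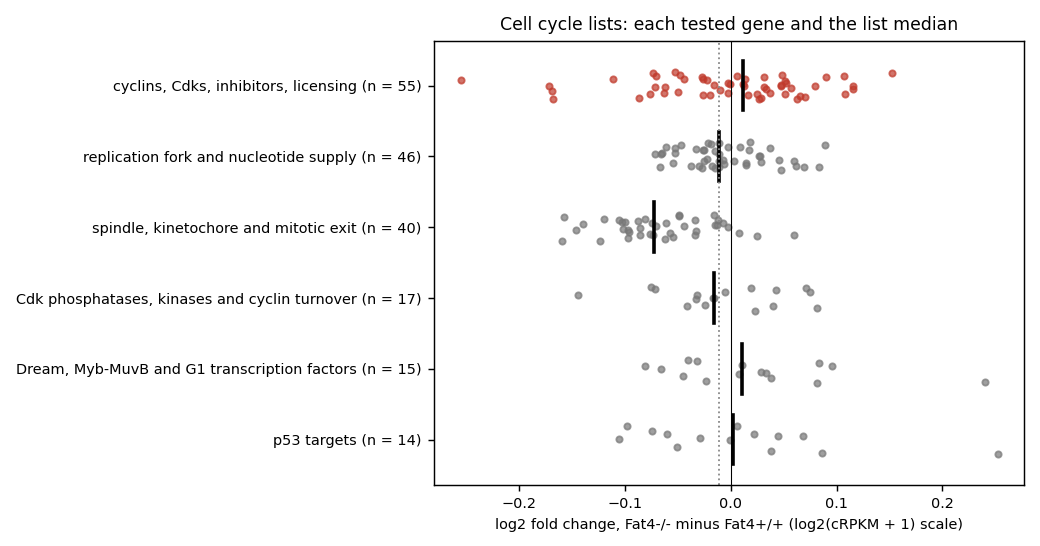
Log2 fold change (Fat4-/- minus Fat4+/+, log2(cRPKM + 1) scale) of every tested gene of the cyclin, Cdk, inhibitor and licensing set and of 5 wider lists; vertical bars are list medians and the dotted line the median of all tested genes (-0.01). The spindle list has its median at -0.07 with 37 of 40 genes below 0, and the other medians lie between -0.02 and 0.01.

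Among 17 Cdk phosphatases, kinases and cyclin turnover genes, 7 were above and 10 below 0 (median -0.02), with Cdkn3, a Cdk phosphatase, at 7.74, 7.62 and 6.70 cRPKM in mutant and 8.45, 8.18 and 8.04 cRPKM in wildtype libraries (adjusted p = 0.330, limma). Cdc25c, an activating phosphatase of Cdk1, and Wee1, an inhibitory kinase, were at -0.08 and 0.07 on the log2 scale (adjusted p = 0.497 and 0.641, limma), and Wee1 was at 0.02 without wildtype embryo 1. Of 15 DREAM, Myb-MuvB and early-phase transcription factors, 9 were above and 6 below 0 (median 0.01). Myc, a growth-promoting factor, was at 43.10, 47.64 and 45.87 cRPKM in mutant and 34.79, 38.53 and 42.13 cRPKM in wildtype libraries. Its groups did not overlap (log2 fold change 0.24, SE 0.0697, limma adjusted p = 0.172), while its relative Mycn was at 0.10 (adjusted p = 0.619, limma) and Rbbp4, a histone chaperone of the MuvB core, at 0.08 (adjusted p = 0.553, limma). Mycn was at 0.03 without wildtype embryo 1 and 0.0022 with the score of Y-linked genes as covariate, and Rbbp4 at 0.04 without mutant embryo 2.

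Targets of p53, listed because Cdkn1a is one, divided evenly, with 7 of 14 tested genes above and 7 below 0 (median 0.00). Phlda3, an inhibitor of Akt, was at 30.36, 35.70 and 31.49 cRPKM in mutant and 27.56, 27.52 and 26.18 cRPKM in wildtype libraries, without overlap (log2 fold change 0.25, SE 0.0607, limma adjusted p = 0.0966). Btg2, an antiproliferative gene, was at 8.98, 9.02 and 8.57 cRPKM in mutant and 9.59, 9.62 and 9.61 cRPKM in wildtype libraries, and Ccng1 was at 14.46, 14.32 and 13.53 in mutant and 15.75, 15.04 and 14.72 in wildtype libraries. Both were without overlap in the other direction and did not pass (adjusted p = 0.313 and 0.404, limma).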

How the data were processed

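RNA levels were measured by sequencing in 6 libraries, 3 mutant and 3 wildtype. The authors deposited 1 table of cRPKM, a corrected RPKM, without stating the correction in the labels. Bowtie and the mm9 build are named in the submitters' processing notes, and the file headers mark the reads as trimmed. Columns were matched to samples by the header text in each sample's description.

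For 12315 genes, those averaging 1 cRPKM or more, log2(cRPKM + 1) was compared in R 4.3.3 by limma 3.58.1 (lmFit, eBayes with trend, 2-sided, genotype as single term), adjusted by Benjamini-Hochberg over all of them, with calls at 0.05. Fold changes on this scale understate changes of low genes; 95% intervals are limma's. An exact permutation test of 3 against 3 cannot go below p = 0.1. The script was tested on simulated data.

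Read totals are unknown. Ratios between low values gave a rough depth of 0.902 to 1.04 relative to wildtype embryo 1, a factor that explained 17 to 23 of the 28 to 35 low genes used per library. The labels do not say how reads shared by related or overlapping genes were counted.

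Members and lists were chosen with earlier results of these data known. Genes given per library were the 3 with the smallest p in each role, 17 central genes and up to 3 per wider list; others, the long-transcript comparison and the promoters shown were chosen after values were seen. Promoters came from RefSeq (GRCm38.p6) and transcript lengths from GENCODE M21. Alternatives were other pseudocounts, filters, scalings and weights, a replicate block, a Y-linked covariate and leaving out each library. Results of 1 gene of these families are not reported here.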

Additional observations from a re-analysis of the deposited data

How the results depend on the processing

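No cyclin, Cdk, inhibitor, E2f, pocket protein, licensing or mitotic gene was called in any of 16 alternatives, and the lowest adjusted p among them was 0.0774 (Ccnd1, with the embryo number as a replicate block). The counts over all genes, 68 higher and 108 lower, did depend on the setting. Without a filter they were 10 and 22, and with a mean of at least 5 cRPKM 61 were lower. With the replicate block they were 109 and 164, and 0 of the cell cycle genes were called. The block left 2 residual degrees of freedom, against 4 in the main fit. With the Y-linked score as covariate, genotype rested mainly on mutant embryo 1, so counts are left out. Residual degrees of freedom went to 3 from 4 there. Leaving out 1 library gave 7 to 53 higher and 17 to 87 lower genes. The lowest counts, 7 and 17, came without mutant embryo 2.

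The embryo numbers were not treated as pairs in the main fit. Deviations from the group means correlated at 0.0985, 0.205 and 0.277 for embryos 1, 2 and 3. Between embryos of unlike number the correlations ran from -0.373 to 0.227. Mutant embryo 1 correlated slightly better with wildtype embryo 3 (0.106), and mutant embryo 2 with wildtype embryo 1 (0.227). These values do not decide whether the numbers mark pairs, and results with the replicate block are given above.

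The median log2 fold change of the tested cell cycle genes, 0.01, was -0.0109 with the Y-linked covariate and -0.00601 to 0.00913 with 1 library left out. Of 51 named genes, 9 with values near 0 changed sign in at least 1 setting. Mcm8 was at 0.0197 with quantile normalisation, 0.00817 with median ratio scaling and 0.0184 with library weights. Median ratio scaling put Cdk2 at 0.00822 and Gmnn at 0.00124. Library weights put Ccne1 at -0.000437 and Cdk4 at -0.0017. The Y-linked covariate put Ccne2 at 0.0320, Ccne1 at -0.0112, Cdk19 at 0.00318, Cdk5 at -0.0147, Mcm9 at -0.00152 and Cdk4 at -0.0214. With 1 library left out the ranges were -0.00143 to 0.0225 for Ccne1, -0.0454 to 0.0161 for Ccne2, -0.0217 to 0.00716 for Cdk2, -0.00575 to 0.0534 for Cdk4, -0.000656 to 0.0855 for Cdk5, -0.0772 to 0.05001 for Gmnn, -0.0275 to 0.0252 for Mcm8 and -0.0314 to 0.0358 for Mcm9. Of the 51 named genes, 30 moved by over 1.5 times with some library left out. The cause was not tested. Depth is unknown, so counting error of low genes such as Cdk6 and Cdkn2c could not be given.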

Other observations

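Balances between partners were computed within each library after the single values had been seen, and carry no test. Ccnd1 made up 38.1, 39.9 and 40.2% of the summed D cyclin level in mutant libraries, against 40.5, 41.3 and 44.8% in wildtype libraries, and Ccnd3 25.1, 26.9 and 24.6% in mutant against 23.7, 23.1 and 20.8% in wildtype libraries. Neither overlapped, while the share of Ccnd2 did. The ratio of Mki67 to Mcm2, a proliferation marker over a licensing gene, was 1.13, 0.922 and 0.969 in mutant and 1.22, 1.10 and 1.23 in wildtype libraries. The ratio of Ccnd1 to Cdk4 was 0.331, 0.308 and 0.361 in mutant and 0.346, 0.375 and 0.432 in wildtype libraries. The ratio of Cdkn1b to Cdkn1a was 2.60, 2.47 and 2.51 in mutant and 2.85, 2.53 and 2.95 in wildtype libraries. All 3 overlapped. That of Cdt1 to Gmnn overlapped too, at 1.11, 1.09 and 1.32 in mutant and 0.934, 1.07 and 1.12 in wildtype libraries. Ratios of Rb1 to E2f1 did not overlap, at 0.199, 0.186 and 0.193 in mutant and 0.238, 0.221 and 0.232 in wildtype libraries. Nor did those of Ccnb1 to Mcm2, at 1.01, 1 and 0.925 in mutant and 1.09, 1.07 and 1.05 in wildtype libraries. Each of these genes was also without overlap alone. Among pocket proteins, Rbl1 stood at 56.0 to 56.5% in mutant and 54.2 to 55.0% of the summed level in wildtype libraries, without overlap.

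Fold changes were also set beside promoter elements, as a description. The 9 tested genes with an E2F match and no CHR match had a median log2 fold change of -0.0024, 4 above and 5 below 0, and the 9 with a CHR match and no E2F match had a median of -0.03, also 4 above and 5 below.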
